A study of Homo sapiens with 4 samples.

Results

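The stretch described here is the light-strand RNA that lies opposite the genes ND4L and ND4, which encode membrane subunits of respiratory complex I. It was taken by position, as 4433 to 6100 of the light-strand files, which pair with 10469 to 12136 of the heavy-strand files. It holds 1668 of the 16500 positions of a light-strand file. All coordinates are in the files' own numbering of the mitochondrial chromosome. The base column was the complement of the heavy-strand file at 1668 of 1668 paired positions. On the heavy strand it held an ATG and an uninterrupted frame of 99 codons for ND4L and of 459 codons for ND4, so the label fitted the sequence. Opposite ND4 runs from 4433 to 5810 and opposite ND4L from 5804 to 6100, and the 7 nt from 5804 to 5810 are opposite both.

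Mitochondria were isolated from HEK-293T, a human embryonic kidney line (HEK 293 in the sample table), and treated with 1% dimethyl sulfate (DMS) for 5 min at 37 °C. The wild type has 2 bioreplicates and the LRPPRC knockout (LRPPRC KO) has 2, each sequenced as 1 library, and all 4 received DMS. The labels do not say how the knockout line was made or whether it is a single clone. LRPPRC is encoded in the nucleus and the files cover mitochondrial RNA, so the level of its transcript was not analysed here. The files hold mismatch fractions without read counts, so the depth is unknown, and a library without DMS was not analysed here. Over the stretch, log2 values of the replicates correlated with Pearson's r of 0.989 in wild type and 0.998 in the knockout at A and C, and of 0.990 and 0.990 at G and T, across positions that are not independent. No position of the stretch was listed at 0 in any library.

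The mitochondrial genome is transcribed in full from both strands. The light-strand transcript yields the ND6 mRNA and several tRNAs, and the remainder, antisense to the heavy-strand genes, is normally degraded by the helicase SUV3 with the exonuclease PNPase. LRPPRC, with its partner SLIRP, binds and stabilises heavy-strand mRNAs. DMS methylates unpaired A and C, and the reverse transcriptase TGIRT writes a mismatch there. A mismatch at A or C of the light-strand file therefore reads the antisense RNA, whereas a modified A or C of the sense mRNA, if its read were placed in the light-strand file, would fall at T or G.

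The antisense stretch was rich in G and T, with 435 A, 172 C, 564 G and 497 T. The windows of 50 nt below are printed 5′ to 3′ along the antisense RNA, in the letters of the base column with T for U. They are the 3 windows whose A and C fractions rose most in the knockout relative to the whole file, the 3 that fell most, and the highest and lowest in the knockout. Capitals mark A and C with a mean fraction of at least 3% in the knockout.

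light strand 5101 to 5150, rose relative to the file: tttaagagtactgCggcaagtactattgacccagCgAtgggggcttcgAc

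light strand 5851 to 5900, rose relative to the file: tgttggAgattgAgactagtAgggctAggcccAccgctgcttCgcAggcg

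light strand 5051 to 5100, rose relative to the file: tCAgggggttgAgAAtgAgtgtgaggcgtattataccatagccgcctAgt

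light strand 4451 to 4500, fell relative to the file: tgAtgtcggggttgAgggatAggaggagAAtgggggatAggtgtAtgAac

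light strand 5651 to 5700, fell relative to the file: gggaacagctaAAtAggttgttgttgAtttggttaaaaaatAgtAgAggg

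light strand 4501 to 4550, fell relative to the file: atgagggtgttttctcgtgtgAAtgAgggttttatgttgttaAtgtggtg

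light strand 5501 to 5550, highest in the knockout: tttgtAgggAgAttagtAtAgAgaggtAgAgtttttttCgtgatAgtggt

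light strand 4951 to 5000, lowest in the knockout: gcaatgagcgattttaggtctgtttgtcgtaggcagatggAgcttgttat

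Of the 48 capitals in these 8 windows, 43 stand on A and 5 on C. The rising windows are C-rich for this strand, with 11, 12 and 8 C, whereas each of the falling windows holds 2. By level the order is the other way round, since the window highest in the knockout holds 1 C and 10 capitals and the lowest holds 6 C and 1 capital.

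Positions were tested where the fraction, averaged over the 4 libraries, lay between 0.002 and 0.3. At A and C 594 of 607 positions were tested, which left out 12 C below the lower limit, listed between 0.0610% and 0.248%, and the C at 4851. At G and T 1055 of 1061 were tested, which left out 5 below the limit and the T at 5103. The C at 4851 stood at 89.5% and 90.7% in wild type and at 95.1% and 95.3% in the knockout, and its paired sense base at 93.5% to 94.9%. The T at 5103 stood at 95.7% and 96.6% in wild type and at 95.3% and 95.3% in the knockout, and its sense base at 95.1% to 98.2%. A sequence variant or a native modification as the source was not tested. Values after ± are the SD of the 2 replicates. Where a library gives 1 value, the groups were set against each other with an exact permutation test (two-sided), whose smallest possible p is 0.333 for 2 replicates a group.

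In wild type the light-strand stretch carried more mismatches at G and T than at A and C, and in the knockout the order was the opposite. At A the mean fraction was 1.97% and 1.94% in the wild-type libraries and 2.76% and 2.77% in the knockout libraries. At C it was 1.03% and 0.987% against 1.56% and 1.57%. At G it was 2.65% and 2.69% in wild type against 0.406% and 0.425% in the knockout. At T it was 1.86% and 1.93% against 0.715% and 0.704%. The groups did not overlap at any of the 4 bases, and G, which pairs with sense C, moved furthest.

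Pooled over A and C, the mean fraction went from 1.70% ± 0.0230 in wild type to 2.44% ± 0.00390 in the knockout (n = 2 and 2). The difference of 0.741 percentage points, a ratio of 1.43, was far larger than either SD (exact permutation p = 0.333, the smallest possible). Pooled over G and T, the mean went from 2.31% ± 0.0351 to 0.553% ± 0.00330, a difference of -1.75 percentage points (exact permutation p = 0.333). Dividing the A and C mean by the G and T mean gave 0.753 and 0.723 for the wild-type libraries, but 4.43 and 4.40 for the knockout libraries. That 5.98-fold difference in the ratio was likewise far beyond the replicate spread (exact permutation p = 0.333).

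**Figure D1:**
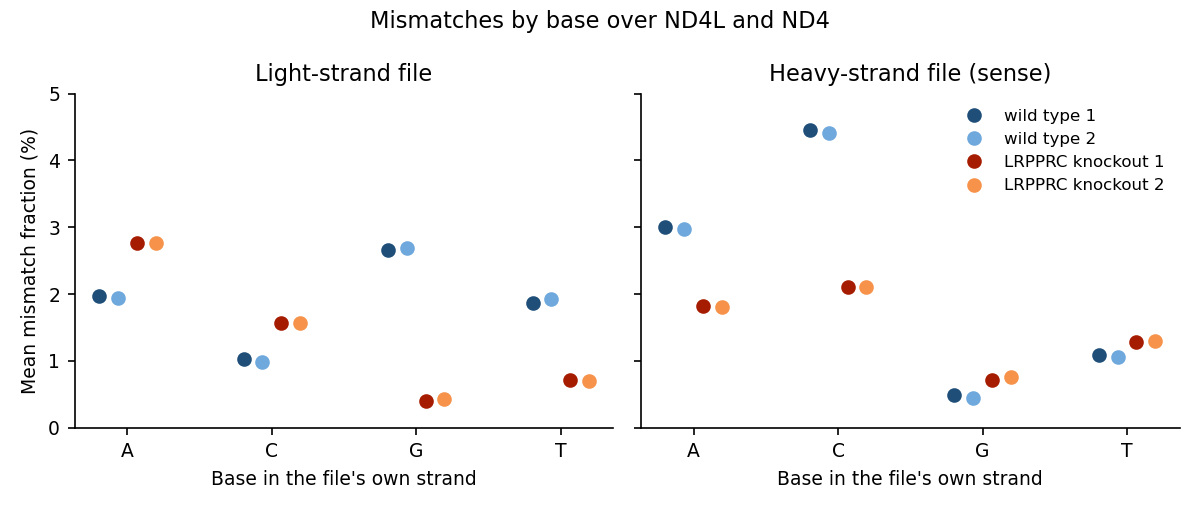
Mean mismatch fraction (%) at tested A, C, G and T positions over ND4L and ND4, in the light-strand file (left) and in the heavy-strand file over the same stretch (right). Each point is 1 library. In the light-strand file G stands near 2.7% in both wild-type libraries and near 0.4% in both knockout libraries, while A and C are higher in the knockout.

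The sense strand moved the other way at its own A and C. Over the same stretch of the heavy-strand file, A went from 2.98% ± 0.0207 in wild type to 1.82% ± 0.0190 in the knockout, and C from 4.44% ± 0.0286 to 2.10% ± 0.00190 (n = 2 and 2). Sense G went from 0.465% ± 0.0307 to 0.738% ± 0.0317 and sense T from 1.07% ± 0.0267 to 1.30% ± 0.0104. In the knockout the G and T of the light-strand stretch (0.416% and 0.710%) were thus below the G and T of the sense file in either group. The exact permutation test gave p = 0.333 for each of these 4 sense differences, the smallest possible.

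Position by position, light-strand G and T in wild type followed the A and C they pair with. The least-squares slope of the light-strand fraction on the sense fraction reached 54.0% and 55.4% in the wild-type libraries and 3.82% and 3.98% in the knockout libraries, over 1055 pairs. The difference of -50.8 percentage points exceeded the SDs of 1.02 and 0.114 (exact permutation p = 0.333, the smallest possible). Spearman's rho of these pairs, which share the library and the sequence, reached 0.767 and 0.755 for wild type but 0.224 and 0.225 for the knockout. The intercept, the light-strand level where the sense fraction is 0, went from 0.254% ± 0.0105 to 0.476% ± 0.00143. For G alone the mean slope went from 53.6% in wild type to 4.61% in the knockout, and for T alone from 59.2% to 12.4%. The pooled knockout slope thus lay below that of either base. By Theil-Sen the pooled slope went from 54.0% to 6.18%. The light-strand slopes given below pool G and T. At the 103 pairs with a sense fraction of at least 3% in every library, the median light-strand value came to 57.3% and 55.8% of the sense value in the wild-type libraries and to 12.8% and 13.4% in the knockout libraries. Fewer sense reads and more antisense reads in the light-strand file cannot be told apart from fractions, nor can fewer mitochondria and less RNA in each.

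**Figure D2:**
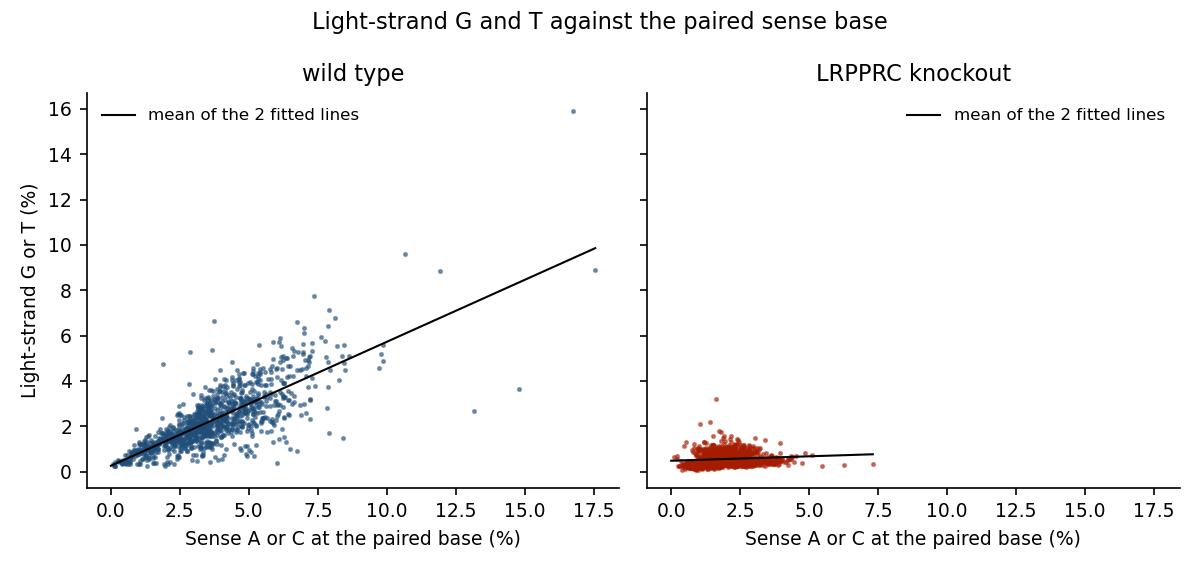
Each point is 1 of 1055 G or T positions of the light-strand stretch, with its group mean fraction (%) against the group mean fraction (%) of the sense A or C it pairs with, in wild type (left) and in the knockout (right). The black line has the mean slope and intercept of the 2 libraries, 54.7% for wild type and 3.90% for the knockout.

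The G and T positions that fell furthest, chosen for that fall, are given with their sense bases as a description. The G at 5094, paired with the sense C at 11475, stood at 15.4% and 16.4% in wild type, where the sense C averaged 16.7%. In the knockout it stood at 0.331% and 0.369%, although the sense C still averaged 7.31%. It fell by 3.92 on the centred log2 scale (SE 0.07, adjusted p 0.000133 by limma). The G at 5526 went from 8.88% and 8.88% to 0.341% and 0.365%, opposite a sense C averaging 17.6% and 3.52% in the respective groups. The G at 5172 went from 9.42% and 9.73% to 0.489% and 0.541%, opposite a sense C at 10.7% and 2.52%. The T at 5145 and the G at 4968 fell from 5.53% ± 0.153 to 0.227% ± 0 and from 5.32% ± 0.0495 to 0.247% ± 0.00424. At all 5 the groups did not overlap, and none of the 5 reached 1% in the knockout.

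A few T positions went up instead. The T at 5790, the highest G or T of the stretch in the knockout, went from 1.83% and 1.55% to 3.35% and 3.04%, where the sense A averaged 1.90% in wild type and 1.64% in the knockout. On the log2 scale it rose by 2.11 with centring (SE 0.12, adjusted p 0.000260 by limma) and by 0.89 uncentred. The Ts at 5538 and 5537, in a run of T, rose from 0.247% ± 0.00919 to 0.540% ± 0.0141 and from 0.331% ± 0.0269 to 0.626% ± 0.0163. The other T positions that stood highest in the knockout were 4752, at 2.18% ± 0.0523, and 6091, at 2.09% ± 0.127.

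Across all G and T positions of the file, limma called 997 of the 1055 in the stretch lower in the knockout without centring (94.5%, against 72.4% of the whole file) and 11 higher (1.04%, against 2.28%). The median log2 change was -1.78, against -1.04 over the whole file. Centring on the library medians, which differed by -1.23 between knockout and wild type, left 643 lower (60.9%, against 33.9%) and 242 higher (22.9%, against 44.0%). The groups did not overlap at 1039 of the 1055 positions, or 98.5%, against 87.7% of the file. In 1020 of these the knockout was lower.

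At A and C the stretch rose as a whole, with a minority of positions against the trend. Without centring, limma called 411 of 594 positions higher in the knockout (69.2%, against 46.2% of the file) and 52 lower (8.75%, against 14.3%). The median log2 change was 0.45, against 0.22 over the file. After centring, which removed a difference of 0.54 between the library medians, 186 were called higher (31.3%, against 24.6%) and 249 lower (41.9%, against 50.7%), so the direction of many positions depended on the scaling. Quantile normalization gave 261 higher and 188 lower. No overlap between the groups was seen at 545 positions (91.8%, against 82.3%), of which 459 were higher in the knockout. The replicates differed by a median absolute log2 value of 0.08 (wild type) and 0.03 (knockout).

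The adenine at 5883, opposite ND4L, rose most. Its fraction was 1.13% and 0.918% in the wild-type libraries and 9.90% and 9.61% in the knockout libraries. It rose by 2.60 on the centred log2 scale (SE 0.08, adjusted p 0.000197 by limma) and by 3.14 uncentred. It lies in the window from 5851 printed above, 13 nt before the A at 5896, which rose from 0.605% ± 0.0403 to 3.66% ± 0.0141. The other 3 that rose most span 22 nt opposite ND4. The A at 5107 went from 0.394% and 0.345% to 2.32% and 2.40%. The C at 5114 went from 0.723% and 0.611% to 4.07% and 4.11%, and the A at 5129 from 0.468% and 0.368% to 2.61% and 2.65%. Their centred log2 changes were 1.85, 1.91 and 1.86, with SE from 0.07 to 0.10 and adjusted p from 0.000218 to 0.000301 by limma. These 3 positions lie 4 to 26 nt from the T at 5103, which stands above 95% in all 4 libraries, and its part in the result was not tested.

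Wild type had a high outlier at the adenine at 5794, 10 nt before the stretch opposite ND4L begins. It stood at 17.6% and 23.2% in wild type, the highest A or C fraction tested in the stretch, and at 3.61% and 3.68% in the knockout. It fell by 2.98 on the centred log2 scale (SE 0.15, adjusted p 0.000301 by limma). The sense T it pairs with averaged 2.49% and 1.47%. The next highest in wild type were the adenines at 4829 (7.11% and 8.66%), 4825 (6.02% and 7.39%), 4465 (6.13% and 6.55%) and 4471 (5.37% and 5.26%). In the knockout they stood at 5.10%, 2.75%, 4.63% and 4.05%, so all 5 were lower there. The 5 were chosen as the highest in wild type, which favours a lower value in the knockout, so this is a description. Among the positions that fell most were also a pair of adenines in the run of A printed in the window from 5651, at 5685 (0.652% ± 0.0919 to 0.0750% ± 0.00566) and 5686 (0.415% ± 0.0516 to 0.114% ± 0.00424). The C at 5345 and the A at 4783 completed the 5, with centred log2 changes of -1.96 and -1.83.

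In the knockout, 202 and 201 of the 594 A and C positions reached 3%, against 59 and 54 in wild type. Most were A, with 181 and 181 in the knockout. At G and T the order was turned, with 1 and 1 of 1055 positions at 3% or more in the knockout and 244 and 263 in wild type. The highest A or C in the knockout was the C at 5378, at 10.1% and 10.6%, against 3.72% and 3.08% in wild type. The adenines at 5883, 5528 (9.17% and 9.51%), 6093 (8.71% and 8.59%) and 5053 (7.60% and 7.31%) followed. The A at 6093 rose by 0.75 without centring but by only 0.21 after it (adjusted p 0.0465 by limma), and it lost the call under 6 of the alternatives, 2 of which each leave out 1 knockout library (adjusted p 0.169 without replicate 1 and 0.126 without replicate 2).

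Several of these sites fall in loops of short predicted hairpins. The minimum free energy fold of 41 nt of antisense RNA centred on each of the 18 named A and C positions left 12 unpaired, 10 of them in a hairpin loop. The 4 whose loop is closed by a stem of 6 base pairs follow, and capitals mark the predicted loop.

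antisense 5358 to 5398, C at 5378: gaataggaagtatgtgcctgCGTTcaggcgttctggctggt

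antisense 5094 to 5134, C at 5114: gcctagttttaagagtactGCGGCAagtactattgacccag

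antisense 5508 to 5548, A at 5528: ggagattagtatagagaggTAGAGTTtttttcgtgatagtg

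antisense 6073 to 6113, A at 6093: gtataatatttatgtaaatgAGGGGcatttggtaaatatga

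The C at 5378 sits in a loop of 4 nt between the arms gcctg and caggc, and that at 5114 in a loop of 6 nt between agtact and its own copy, which is self-complementary. The A at 5794, the highest in wild type, was paired in the fold of its 41 nt. Each position was counted from its own fold, and folds of overlapping sequence can exclude each other. The A at 5107 and the A at 5129, counted as unpaired, are paired in the fold around 5114. The adenines at 4825 and 4829, both counted in a loop, are each paired in the fold around the other. Folds this short leave out any longer pairing, and these positions were chosen by their fractions, so the count is a description.

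RNAplfold gave, from the sequence alone, the probability that each A and C of the antisense RNA is unpaired. Spearman's rho of this probability with the fraction reached 0.438 and 0.433 for wild type and 0.551 and 0.551 for the knockout, across 594 positions that share library and base composition. For A alone it went from 0.266 ± 0.000504 to 0.406 ± 0.00273 and for C alone from 0.148 ± 0.0179 to 0.434 ± 0.00328 (exact permutation p = 0.333 for the pooled difference, the smallest possible). The same A and C fractions ranked more closely with the predicted unpaired probability of the sense base opposite, with rho of 0.590 ± 6.89e-05 for wild type and 0.564 ± 0.000238 for the knockout, a change of -0.0260. Adenines with an unpaired probability under 0.2 averaged 1.66% ± 0.0186 in wild type and 1.90% ± 0.0133 in the knockout. Those over 0.8 averaged 2.24% ± 0.0487 and 3.47% ± 0.00802. The knockout therefore exceeded wild type by 0.240 percentage points at adenines predicted paired and by 1.23 at adenines predicted unpaired. The class under 0.2 includes the outlier at 5794, whose unpaired probability was 0.153. It stood at 17.6% and 23.2% in wild type and at 3.61% and 3.68% in the knockout, which narrows the gap in that class. The gap without it was not computed. Over A and C together, the AUROC that separates positions over 0.8 from those under 0.2 rose from 0.814 ± 0.00185 to 0.889 ± 0.00113. These classes differ in base, with 85 A and 3 C over 0.8 and 81 A and 121 C under 0.2, and C had lower fractions than A. For A alone the AUROC went from 0.728 ± 0.00349 to 0.856 ± 0.00447.

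**Figure D3:**
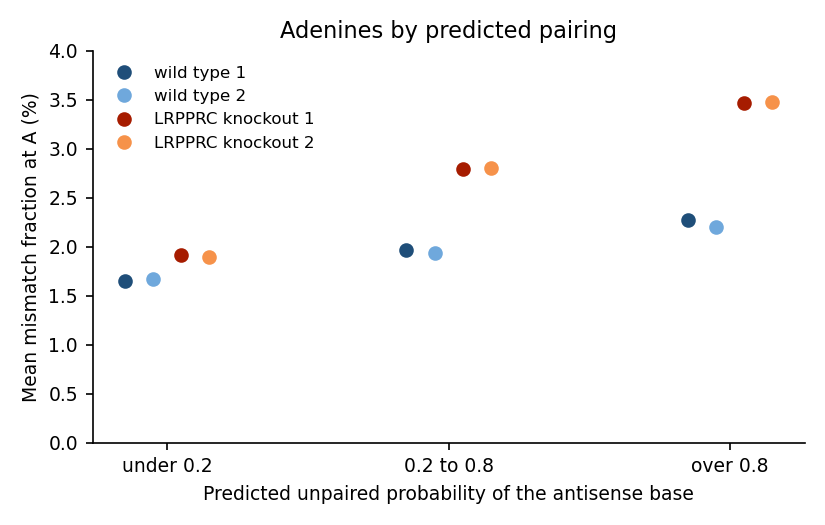
Mean mismatch fraction (%) at adenines of the stretch by predicted unpaired probability of the antisense base, with 81 adenines under 0.2, 269 from 0.2 to 0.8 and 85 over 0.8. Each point is 1 library, and the gap between knockout and wild type is 0.240 percentage points in the lowest class and 1.23 in the highest. The lowest class includes the A at 5794, at 17.6% and 23.2% in wild type, which narrows its gap.

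The G and T of the light-strand file were compared in the same way with the predicted pairing of the sense base. In wild type, G paired with sense C under 0.2 averaged 1.77% ± 0.0218 and over 0.8 2.96% ± 0.0323. In the knockout these classes stood at 0.306% ± 0.0101 and 0.449% ± 0.0134. Over G and T together, rho came to 0.274 and 0.275 for wild type and 0.285 and 0.298 for the knockout, a difference of 0.0173 (exact permutation p = 0.333). Each base alone moved more, G from 0.249 ± 0.00229 to 0.334 ± 0.00645 and T from 0.238 ± 0.00573 to 0.427 ± 0.00647. With a folding window of 150 nt and a span of 100 nt, the pooled difference was 0.0473.

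Neighbouring bases went with reactivity too. In the knockout an A followed by G averaged 3.25% ± 0.0107 (188 positions), against 2.13% ± 0.0186 before C (28 positions) and 2.38% ± 0.00198 before T (127 positions). A C followed by G or A averaged 2.27% ± 0.0272 and 2.03% ± 0.0116, against 0.755% ± 0.00993 before another C. In wild type, A before G, C and T averaged 2.17% ± 0.0256, 1.90% ± 0.114 and 1.82% ± 0.0325. The 28 A before C include the outlier at 5794, at 17.6% and 23.2% in wild type. A mean without it was not computed, so A before C and A before T were not compared in wild type. C before G, A and C averaged 1.32% ± 0.0319, 1.23% ± 0.0452 and 0.525% ± 0.0233 there. Opposite codon positions 1, 2 and 3 of ND4, adenines averaged 2.86% ± 0.00951, 2.81% ± 0.00653 and 2.81% ± 0.00639 in the knockout. In wild type they averaged 2.00% ± 0.0153, 2.15% ± 0.00222 and 1.87% ± 0.0392. The adenines opposite codon position 2 include the outlier at 5794, and a mean without it was not computed here either. The exact permutation test was not applied to these contexts, which differ in their sequence and predicted pairing.

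Along the antisense RNA the knockout was more even than wild type. The Gini index over positions, 0 where all fractions are equal, was 0.346 ± 0.0128 and 0.313 ± 0.00209 at A and C, and 0.305 ± 0.00540 and 0.289 ± 0.00755 at G and T (exact permutation p = 0.333 for each). In 33 windows of 50 nt, the A and C mean in the knockout ranged from 1.65% to 4.11% in replicate 1 and from 1.62% to 4.16% in replicate 2. In wild type it ranged from 0.543% to 3.60% and from 0.478% to 3.71%. The ratio of A and C to G and T exceeded 1 in 33 of 33 windows in each knockout library and in 11 and 10 in the wild-type libraries. Across the windows the A and C mean and the G and T mean ran against each other in wild type (rho -0.464 and -0.460) and together in the knockout (0.469 and 0.480).

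**Figure D4:**
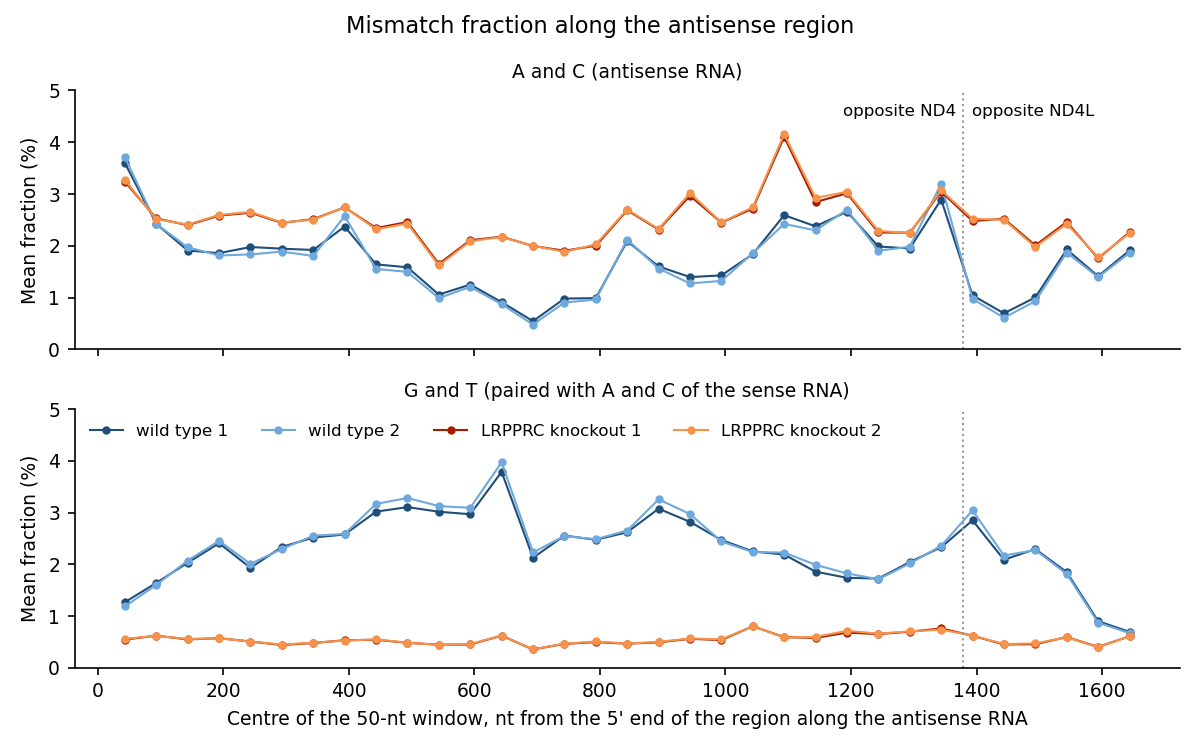
Mean mismatch fraction (%) in 33 windows of 50 nt along the antisense RNA, from the end opposite the 3′ end of ND4 (left) to the start of ND4L (right), at A and C (top) and at G and T (bottom), with 1 line per library. The dotted line marks the end of the part opposite ND4. The wild-type lines dip at A and C in the windows that begin at 669 and 1419 nt, to 0.511% and 0.653% on average, where the knockout averages 2.00% and 2.51%. At G and T the knockout lines reach at most 0.804%.

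Limma called 30 of the 33 A and C windows higher without centring (90.9%, against 56.4% of the windows of the file) and 1 lower (3.03%, against 24.1%). After centring 10 were higher (30.3%, against 28.3%) and 20 lower (60.6%, against 62.2%), shares near those of the file, and quantile normalization gave 15 higher and 14 lower. The window from 5101 to 5150 changed most, from 0.543% and 0.478% in wild type to 2.00% and 2.00% in the knockout. Its centred log2 value rose by 1.20 (SE 0.05, adjusted p 3.48e-07 by limma) and its uncentred value by 1.74. The windows from 5851 and from 5051 rose from 0.653% ± 0.0603 to 2.51% ± 0.0141 and from 0.890% ± 0.0295 to 2.17% ± 0.00350. In the window from 5851 only 7 of 12 C were tested, and the size of its rise depended on the lower limit. Its centred log2 rise was 0.78, but 0.44 with no lower limit and 1.49 with a lower limit of 0.01. The window from 4451 to 4500 was the 1 called lower without centring, falling from 3.65% ± 0.0807 to 3.25% ± 0.0239. The windows from 4501 and 5651, lower after centring by -0.55 and -0.56, did not pass the threshold without it (adjusted p 0.813 and 0.572 by limma). The window highest in the knockout, from 5501, stood at 4.13% ± 0.0361 against 2.51% ± 0.120, and the lowest, from 4951, at 1.63% ± 0.0215 against 1.02% ± 0.0486.

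All 33 G and T windows were called lower without centring (against 87.0% of the file). After centring 29 were lower (87.9%, against 41.5%) and 3 higher (9.09%, against 49.7%). The 3 that fell most adjoin each other from 4901 to 5050, and the window from 4951 went from 3.02% and 3.13% to 0.447% and 0.443%. The 3 called higher after centring lie at the ends of the stretch and were lower without it. The window from 6051 to 6100, opposite the start of ND4L, went from 0.694% and 0.672% to 0.610% and 0.612%, a log2 change of -0.27 without centring, the smallest of the 33.

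The slope in wild type varied along the stretch. In 6 segments of 278 nt from the 5′ end of the antisense stretch, the slope of light-strand G and T on sense A and C averaged 34.3%, 65.8%, 85.0%, 59.4%, 41.7% and 39.7% in wild type. Knockout values were 7.80%, 5.76%, 5.59%, 2.89%, -9.39% and 6.24%. The libraries of a group differed by at most 2.75 percentage points in any segment. The A and C mean in wild type was lowest, at 0.936%, in the segment with the highest slope, and highest, at 2.37%, in the segment with the lowest. In the knockout these segments stood at 2.06%, also the lowest of the 6 there, and 2.68%. The wild-type slope and A and C mean did not run strictly against each other. Segments 5 and 6, with similar slopes, had wild-type A and C means of 2.32% and 1.33%.

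**Figure D5:**
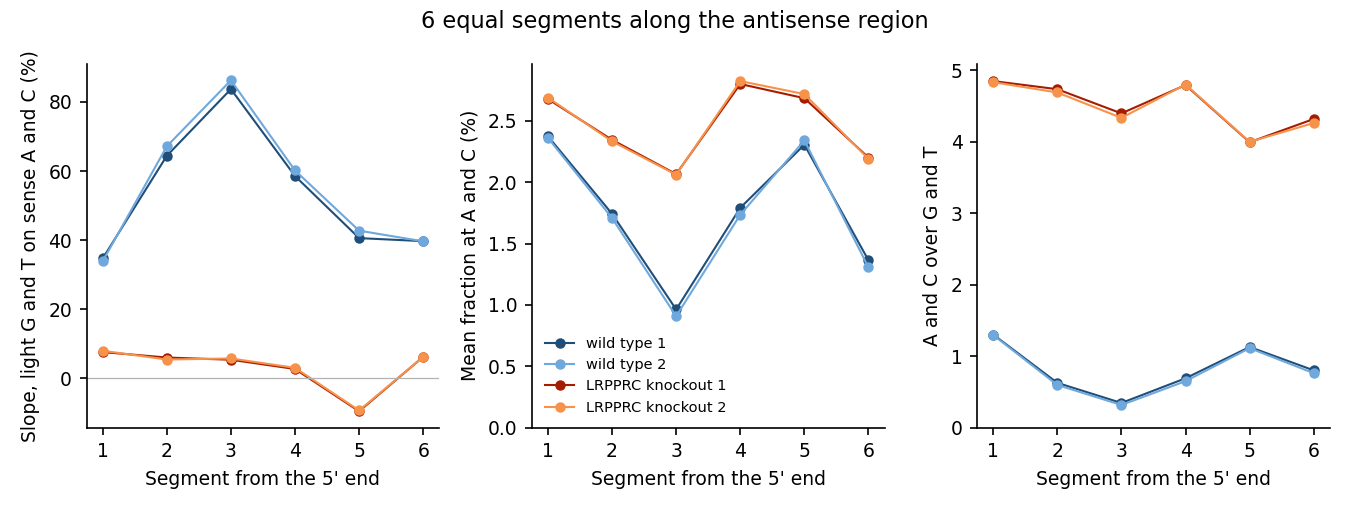
Values in 6 segments of 278 nt from the 5′ end of the antisense stretch, with 1 line per library: the slope (%) of light-strand G and T on sense A and C (left), the mean fraction (%) at A and C (middle) and the ratio of the A and C mean to the G and T mean (right). In wild type the slope peaks at 85.0% in segment 3, where the A and C mean falls to 0.936% and the ratio to 0.333.

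ND4L and ND4 were alike in direction. Opposite ND4L, A and C went from 1.37% and 1.31% to 2.22% and 2.21%, a log2 change of 0.73. Opposite ND4 they went from 1.80% and 1.77% to 2.49% and 2.50%, a log2 change of 0.48. The slope of light-strand G and T on the sense strand fell from 43.2% ± 0.236 to 5.54% ± 0.0748 opposite ND4L and from 56.3% ± 1.15 to 3.60% ± 0.136 opposite ND4. The exact permutation p was 0.333 for each of these 4 differences, and the difference between the genes was not tested.

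The direction of the A and C difference rests on reading the deposited fractions as they stand. If each A and C mean is divided by 1 minus the library's slope, as if the slope were the share of sense reads, wild type becomes 3.76% ± 0.0339 and the knockout 2.54% ± 0.00707. If the slope times the sense mismatches at the paired base is subtracted first, an alternative chosen after seeing the data, they become 2.67% ± 0.0221 and 2.50% ± 0.00502. Both put the knockout below wild type. Whether the slope measures the share of sense reads was not tested.

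In the other direction, the regression of G and T of the sense file on the antisense A and C they pair with gave slopes of 23.8% and 20.1% for wild type and of 28.8% and 28.9% for the knockout over 594 pairs (exact permutation p = 0.333). The wild-type value rested on the A at 5794. Without it the slopes were 29.2% ± 0.286 and 28.8% ± 0.109, and the difference of 6.84 percentage points became -0.373. Opposite ND4L alone, which does not hold that position, the slope went from 24.6% ± 2.16 to 13.2% ± 0.209. In the 6 segments, with the A at 5794 left out, wild type averaged 32.2%, 22.4%, 66.3%, 43.7%, 11.5% and 23.8%. Knockout values were 50.0%, 46.5%, 35.7%, 25.3%, 10.3% and 12.9%, so the direction differed along the stretch. The light-strand slope was less dependent on its highest position, with 52.4% ± 0.846 and 4.20% ± 0.0891 without the G at 5094.

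The stretch was set beside its neighbours on the antisense RNA. Opposite ND5, which lies upstream, the same slope had a value of 22.1% ± 1.11 for wild type and 9.43% ± 0.323 for the knockout. The slope opposite ND4L and ND4 exceeded it by 32.6 and 32.5 percentage points in the wild-type libraries and lay below it by -5.38 and -5.67 in the knockout libraries. Pooled, A and C opposite ND5 averaged 2.47% ± 0.0262 and 2.46% ± 0.00113, a difference within the spread of the wild-type libraries (exact permutation p = 1). The bases moved in opposite directions there, A from 2.75% ± 0.0278 to 2.80% ± 0.00400 and C from 1.79% ± 0.0225 to 1.64% ± 0.00578. The log2 level of the ND4L and ND4 stretch relative to ND5 at A and C went from -0.54 ± 0.00415 to -0.01 ± 0.00296. Opposite COX2 through ND3, downstream, the slope was 64.6% ± 0.964 and 5.81% ± 0.610. A and C there went from 1.41% ± 0.0159 to 2.15% ± 0.00571, a difference of 0.741 percentage points like that opposite ND4L and ND4. The log2 level of the ND4L and ND4 stretch relative to COX2 through ND3 at A and C went from 0.27 ± 0.00326 to 0.18 ± 0.00153, opposite in sign to the change relative to ND5. There the ratio of A and C to G and T was 0.591 ± 0.0116 and 3.45 ± 0.00544, and the log2 ratio of the ND4L and ND4 stretch relative to it was 0.32 ± 0.0132 and 0.36 ± 0.00402. Against the whole rest of the file, the log2 ratio of bases went from -0.20 ± 0.00132 to 0.76 ± 0.0158. Each value given relative to ND5, to COX2 through ND3 or to the rest of the file differed between groups by more than either SD, with an exact permutation p = 0.333, the smallest possible.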

How the data were processed

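Each of the 4 libraries comes as 2 files, 1 per strand. Each deposited value is a fraction, and per the file headers 1 column holds mismatches, used here, and another mismatches with deletions. The series' design text states an alignment to the mitochondrial genome, and the submitters' processing notes name cutadapt and Bowtie2. Versions, read filters and a coverage minimum are not given in the sources used here. Read counts were not used here, so no interval or floor was computed.

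A light-strand position is 16569 minus its heavy-file partner. Gene limits follow the RefSeq table of GRCh38.p14, lowered by 1 beyond position 3106 to fit the files' sequence. Groups followed the sample descriptions. Fractions were transformed as log2(fraction + 0.001), centred on the library median of the tested A and C, or of the tested G and T, of the light-strand file, and fitted over all tested positions, or over all 50-nt windows with at least 8 of them, with limma 3.58.1 in R 4.3.3 (lmFit, eBayes with trend, two-sided, Benjamini-Hochberg, threshold 0.05). A log2 change on this scale understates changes at low positions. The limma step was tested on simulated data. Unpaired probabilities came from RNAplfold 2.7.2 (window 240 nt, span 160 nt, 37 °C) and site folds from RNAfold of the same release. All else ran in Python 3.11.15 with scipy 1.17.1, pandas 2.3.3 and numpy 2.4.6, and figures in matplotlib 3.10.9.

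Named positions were, among those called, with groups that do not overlap and the same sign with and without centring, the 5 A or C that rose and the 5 that fell most, and for G and T 3 and 5. The highest 5 (A and C) or 3 (G and T) of each group and positions above 0.3 were added, with the windows that rose, fell or stood highest or lowest as listed. The members, lists and tests were chosen with earlier results of these data known. The 6 segments, the 3% limit for capitals, the sequence contexts and the 41-nt folds were chosen after seeing the values. Alternatives covered the pseudocount, centring, limits, value column, bases, slope method, folding window, replicate block and each library in turn.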

Additional observations from a re-analysis of the deposited data

How the results depend on the processing

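The A and C difference between groups reversed under the division by 1 minus the slope, to -1.22 percentage points over the stretch, -0.642 opposite ND4L and -1.35 opposite ND4, and to -0.170 with the sense mismatches subtracted as well, an alternative added after seeing the data. The slope of sense G and T on light-strand A and C reversed to -0.373 with an upper limit of 0.1 or, added later, without position 5794, and to -3.70 by Theil-Sen. The window from 4951 at A and C reversed to 0.45 without centring and to 0.30 with a lower limit of 0.01. The G and T windows from 4451, 6001 and 6051 reversed to -0.996, -0.902 and -0.273 without centring, and that from 6001 to -0.0336 under quantile normalization. Among named features, the A at 6093 and the windows from 4501, 4951, 5501 and 5651 at A and C and from 4451 at G and T lost a call with their direction kept under at least 1 alternative, 15 times in all, and the reversed G and T window from 6001 lost its call under quantile normalization (adjusted p 0.454 by limma). The centred rise of the window from 5501 lost it without either knockout library (adjusted p 0.130 and 0.139 by limma). The centred fall of the window from 4951 lost it without wild-type replicate 1 or either knockout library (0.0673, 0.0535 and 0.157 by limma). All other summary values kept their direction, and the totals of calls over both directions stayed within 1.5 times the main total. The split by direction did not. Without centring, A and C positions went from 186 higher and 249 lower to 411 and 52, A and C windows from 10 and 20 to 30 and 1, G and T positions from 242 and 643 to 11 and 997, and G and T windows from 3 and 29 to 0 and 33. With a lower limit of 0.01, A and C positions were 194 higher and 157 lower and G and T windows 5 and 22, and under quantile normalization G and T windows were 1 and 28. Leaving out 1 library at a time gave 320 to 454 called A and C positions, 831 to 845 called G and T positions and slope differences from -51.5 to -50.1 percentage points. With the replicate number as a block limma called 413 A and C positions, 867 G and T positions, 29 A and C windows and 32 G and T windows. Same-numbered replicates deviated together with r = 0.0449 at A and C and -0.0301 at G and T, so the numbers were not taken to pair the libraries. The depth behind each fraction is unknown, which limits what small differences at low positions can show.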
